A study of Arabidopsis thaliana with 9 samples.

Results

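Among the Pol V transcripts of *Arabidopsis thaliana* were 849 that formed nested pairs, in which a transcript on one strand lay wholly within a transcript of the other strand. They were drawn from 4502 listed transcripts by their reads, length and position. A member had at most 3 reads in each library of the *nrpe1* mutant, was shorter than 1400 bp, overlapped a listed transcript of the opposite strand by at least 1 bp, and either contained or was contained in the partner with which it shared the longest overlap. Of 3960 transcripts that met the limits on reads and length, 1991 overlapped a transcript of the other strand, and 42.6% of these were nested. The members made up 18.9% of the list and fell into 494 pairs. In 356 pairs both transcripts were members, in 127 only the inner one was, and in 11 only the outer one was.

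Nuclear RNA from the aerial parts of soil-grown seedlings, about 2.5 weeks old and fixed with 0.5% formaldehyde, had been immunoprecipitated with an anti-NRPE1 antibody. NRPE1 is the catalytic subunit that defines Pol V. The Pol V RIP-seq libraries used here were 2 repeats each of the wild type Col-0 and of the *nrpe1* mutant (nrpd1b-11, in Col-0), which is mutated in the gene for the protein that the antibody binds. The AGO4 RIP-seq, with an antibody against the small RNA binding protein AGO4, gave 1 library of Col-0 and 1 of the *ago4* mutant, whose allele (ago4-1) had been crossed into Col-0. Libraries of AGO4 RIP-seq in *nrpe1*, and of Pol V RIP-seq in *ago4* and *idn2*, were not analysed here.

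Pol V is a plant RNA polymerase devoted to gene silencing. It transcribes noncoding RNA from transposons and intergenic DNA, and this RNA stays at the locus as a scaffold. AGO4 carries small interfering RNA that pairs with the scaffold, and the methyltransferase DRM2 is then brought in to methylate cytosines of the underlying DNA, among them those in the CHH context, where H is any base but G. This pathway is known as RNA-directed DNA methylation. Small interfering RNA made from double-stranded precursors can match either strand of a locus, so the strands on which Pol V transcribes bear on which RNA is there to be paired with.

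The DNA of short inner transcripts shows what such pairs look like. The sequences below are from the RefSeq assembly TAIR10.1, whose nuclear chromosomes carry the TAIR10 coordinates of the files, and are written 5′ to 3′ on the strand of the inner transcript. Capitals mark the inner transcript, where both strands were transcribed, and lower case marks bases of the outer transcript alone. PVTrans1703 lay inside PVTrans1702, a pair named together in the study's list of primers, and is shown whole. The 2 ends of PVTrans715, which lay inside PVTrans714 at a locus used as an example in the study, show the limits of the reads on the second strand. Listed ends are the outer edges of clustered reads, and what single RNAs span was not measured. PVTrans3832 was the inner transcript with the lowest read density relative to its partner, PVTrans1677 was the shortest of all inner transcripts, and PVTrans4398 belonged to one of the 3 pairs with the most reads. Bases inside annotated genes were left out, which removed 43 bases at the 3′ side of the PVTrans1677 stretch and 220 at that of PVTrans4398. Both listed ends were taken as part of a transcript, which may misplace the first base by 1.
PVTrans1703, chr2:9056919-9057210 (minus strand): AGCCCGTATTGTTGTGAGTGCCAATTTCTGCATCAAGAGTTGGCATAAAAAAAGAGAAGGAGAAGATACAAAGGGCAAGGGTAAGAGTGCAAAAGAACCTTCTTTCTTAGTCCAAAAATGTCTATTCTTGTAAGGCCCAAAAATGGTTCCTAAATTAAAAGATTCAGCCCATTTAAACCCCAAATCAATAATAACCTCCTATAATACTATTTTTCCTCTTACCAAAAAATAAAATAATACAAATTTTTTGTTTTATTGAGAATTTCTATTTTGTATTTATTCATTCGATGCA
PVTrans715 5′ end, chr1:19226227-19226346 (plus strand): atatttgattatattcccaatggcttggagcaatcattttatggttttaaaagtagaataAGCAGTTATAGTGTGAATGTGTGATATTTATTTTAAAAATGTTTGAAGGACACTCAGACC
PVTrans715 3′ end, chr1:19226691-19226798 (plus strand): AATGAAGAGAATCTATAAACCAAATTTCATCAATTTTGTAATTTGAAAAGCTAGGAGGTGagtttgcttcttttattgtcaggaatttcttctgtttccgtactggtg
PVTrans3832, chr5:9617133-9617397 (plus strand): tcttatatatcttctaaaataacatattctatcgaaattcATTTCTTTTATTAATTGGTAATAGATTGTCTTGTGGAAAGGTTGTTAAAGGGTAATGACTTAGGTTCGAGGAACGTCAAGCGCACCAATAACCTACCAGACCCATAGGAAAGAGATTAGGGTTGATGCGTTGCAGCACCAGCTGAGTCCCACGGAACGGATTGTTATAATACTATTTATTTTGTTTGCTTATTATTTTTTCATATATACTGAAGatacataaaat
PVTrans1677, chr2:8575605-8575784 (plus strand): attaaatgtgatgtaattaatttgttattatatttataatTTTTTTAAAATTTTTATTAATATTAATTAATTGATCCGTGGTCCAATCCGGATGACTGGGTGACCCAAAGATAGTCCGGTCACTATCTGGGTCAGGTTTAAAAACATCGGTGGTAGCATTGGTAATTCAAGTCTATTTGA
PVTrans4398, chr5:21160979-21161131 (plus strand): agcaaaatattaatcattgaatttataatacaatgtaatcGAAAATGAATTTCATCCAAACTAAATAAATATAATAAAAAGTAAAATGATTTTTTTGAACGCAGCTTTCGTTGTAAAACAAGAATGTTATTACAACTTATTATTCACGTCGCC
None of these stretches was rich in G+C, with 31.5% in that of PVTrans1703 and 33.2% in that of PVTrans3832. Within the PVTrans1703 stretch, 44 CHH cytosines lay on its own strand and 39 on the strand of PVTrans1702.

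Over all listed transcripts, the totals for repeats 1 and 2 were 251106 and 189141 reads for the Col-0 libraries, against 3049 and 1980 for *nrpe1*. These totals cover the list alone. How deeply each library was sequenced is unknown, so the libraries were compared as if equally deep. Every listed transcript had been selected by the study for more reads in Col-0, and the limit on *nrpe1* reads used the same contrast again. The difference between Col-0 and *nrpe1* is therefore described here and not tested as a property of the nested transcripts.

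Members had reads in both Col-0 repeats and almost none in *nrpe1*. In Col-0 repeat 1 they held 46725 reads, with a lowest count of 3, a median of 47 and a highest of 406. In Col-0 repeat 2 they held 35477 reads, from 3 to 486 with a median of 34. In *nrpe1* they held 21 reads in repeat 1 and 136 in repeat 2, and 737 of the 849 (86.8%) had no read in either. Both Col-0 counts were above both *nrpe1* counts in all 849 members, as in 4500 of the 4502 listed transcripts (100% when rounded). Against a floor of 3 reads per *nrpe1* library, which allows for counting error only, the excess of Col-0 was at least 13.5-fold in the median member. In single members the ratio at this floor ran from 4.83 to 149, a lower bound for the 737 without an *nrpe1* read. By edgeR's quasi-likelihood test with Benjamini-Hochberg adjustment over the list, all 849 were called higher in Col-0, beside 99.9% of all 4502 transcripts. This count reuses the reads that put a transcript on the list, so it is a description and nothing is read from it. With either Col-0 library left out, 0 were called after adjustment, with 95 at an unadjusted p under 0.05 without repeat 1 and 147 without repeat 2. Also 0 were called with TMM factors or DESeq2 size factors computed on the list, with 664 and 577 at an unadjusted p under 0.05.

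The repeats ranked the members alike only in part. Across members, the reads of both Col-0 repeats had a Spearman rho of 0.394, beside 0.369 over the list, with the same libraries behind every point. Of the members, 66 (7.77%) differed more than 4-fold between the repeats, against 10.1% of all listed transcripts. The reads carry no molecular identifiers.

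Nested transcripts were found on both strands and all chromosomes. There were 417 members on the plus and 432 on the minus strand, and by chromosome 214, 173, 175, 114 and 173 on chromosomes 1 to 5, or between 17.3% and 20.2% of the listed transcripts of each. By role, 483 members were inner and 366 outer transcripts. Most pairs stood alone, since only 6 outer transcripts held 2 inner ones and 10 members overlapped 2 transcripts of the other strand.

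The inner transcript typically covered more of the outer one than it left free. Inner transcripts had a median length of 552.5 bp, from 142 to 1369 bp, and outer transcripts a median of 989 bp, from 265 to 8695 bp. The inner covered a median of 60.1% of the outer (95% order-statistic interval 57.2 to 63.2, n = 494 pairs). The share ran from 9.41% to 99.8%, with 33 pairs over 90% and 35 under 25%. PVTrans1677, the shortest inner transcript at 142 bp, covered 17.1% of PVTrans1676. PVTrans1429, the longest at 1369 bp, covered 74.0% of PVTrans1428. PVTrans2298 and its partner PVTrans2299 were closest to full overlap, with a common end at the 5′ end of PVTrans2299 and 2 bp between the other ends. At the other extreme PVTrans2555, of 626 bp, covered 9.41% of the 6665 bp PVTrans2554.

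**Figure D1:**
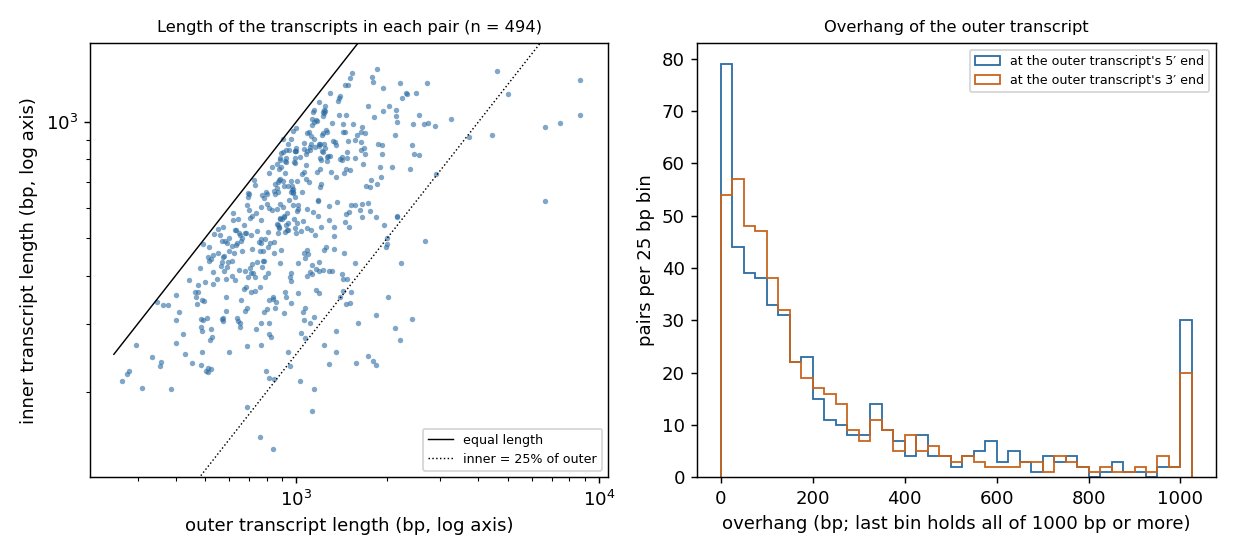
Left, length of the inner against the outer transcript in each of 494 nested pairs, in bp on log axes, with lines at equal length and at 25%. Right, number of pairs by the overhang of the outer transcript in bins of 25 bp, with a median of 133 bp at its 5′ end (blue) and 126 bp at its 3′ end (orange), and the 2 outlines furthest apart in the first bin, with 79 pairs at the 5′ and 54 at the 3′ end.

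The inner transcript lay about as often towards either end of the outer one. The outer transcript extended past the inner one by a median of 133 bp at its 5′ end (121 to 154) and 126 bp at its 3′ end (111 to 141). Per pair, the 5′ overhang minus the 3′ overhang had a median of -3.5 bp (-18 to 16). The longer overhang was at the 5′ end in 242 pairs and at the 3′ end in 250, and 2 pairs had equal overhangs. An overhang of at most 100 bp was found at the 5′ end in 200 pairs (40.5%) and at the 3′ end in 207 (41.9%), and at both ends in 91. Overhangs under 25 bp were found at the 5′ end in 79 pairs and at the 3′ end in 54, a difference that was not tested. Only 12 pairs shared an end exactly, 8 at the 5′ and 4 at the 3′ end of the outer transcript. The inner transcript was on the plus strand in 231 pairs and on the minus strand in 263.

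The line between nested and staggered pairs was fine in places. In 45 of the 494 pairs the smaller overhang was at most 5 bp, and in 106 at most 20 bp. Conversely, 37 transcripts that met the other limits missed nesting by 1 to 5 bp and 159 by at most 20 bp. PVTrans1522 and PVTrans1523 on chromosome 2, for example, missed it by 1 bp. On the length limit, PVTrans604 (1398 bp) was just inside, with 72 and 45 reads in Col-0, and PVTrans2356 (1401 bp) just outside, with 113 and 63. On the *nrpe1* limit, PVTrans2287 with 0 and 3 *nrpe1* reads was inside and PVTrans1704 with 0 and 4 was outside, at 104 and 82 against 198 and 185 reads in Col-0. In all 11 members had 3 reads in an *nrpe1* library, and 7 nested transcripts had 4. The length limit left out 109 nested transcripts that met the *nrpe1* limit.

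Reads on both strands were fixed by the rule, since each partner had to be listed, and no listed transcript had under 29 Col-0 reads over both repeats. As a description, the strand with fewer reads, over both Col-0 repeats, held a median of 39.3% of a pair's reads, and the lowest share was 3.36%. It held under 20% in 25 pairs, under 10% in 5 and under 5% in 3. The libraries were prepared with a strand-specific kit. How many reads of one strand appear on the other was not tested.

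The outer transcript usually had more reads, and the inner one more reads per length. Over both repeats the inner had more reads in 153 of 494 pairs (31.0%, Wilson 95% interval 27.1 to 35.2). Per 100 bp, inner transcripts had medians of 8.18 and 6.08 reads in the first and the second Col-0 repeat, and outer transcripts 5.77 and 4.25. The ratio of inner to outer reads per 100 bp had a median of 1.38 (1.31 to 1.46), with 1.40 in repeat 1 and 1.33 in repeat 2. The inner was denser in 362 pairs (73.3%), in each repeat separately in 244, and in neither repeat in 77.

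Within the list, shorter transcripts had more reads per length. A short transcript was listed only with enough reads, and length is the denominator of the density, so this relation is partly set by the calling. Over the whole list, length and reads per 100 bp had a Spearman rho of -0.56, as a description over 4502 transcripts that share libraries, and among the members of -0.53. Of 4 equal groups of the list by length, the shortest, up to 472 bp, had a median of 18.4 Col-0 reads per 100 bp over both repeats, and the longest, above 979 bp, had 8.27. The shorter over the longer transcript had a median density ratio of 1.40 in the 189 convergent pairs, whose transcripts run towards each other and overlap at their 3′ ends, and of 1.18 in the 442 divergent pairs, which overlap at their 5′ ends. The value of 1.38 for nested pairs lay between these. The shorter transcript had more reads in 45.5% of convergent and 41.6% of divergent pairs, against 31.0% here. These differences were not tested, since pairs are not replicates.

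**Figure D2:**
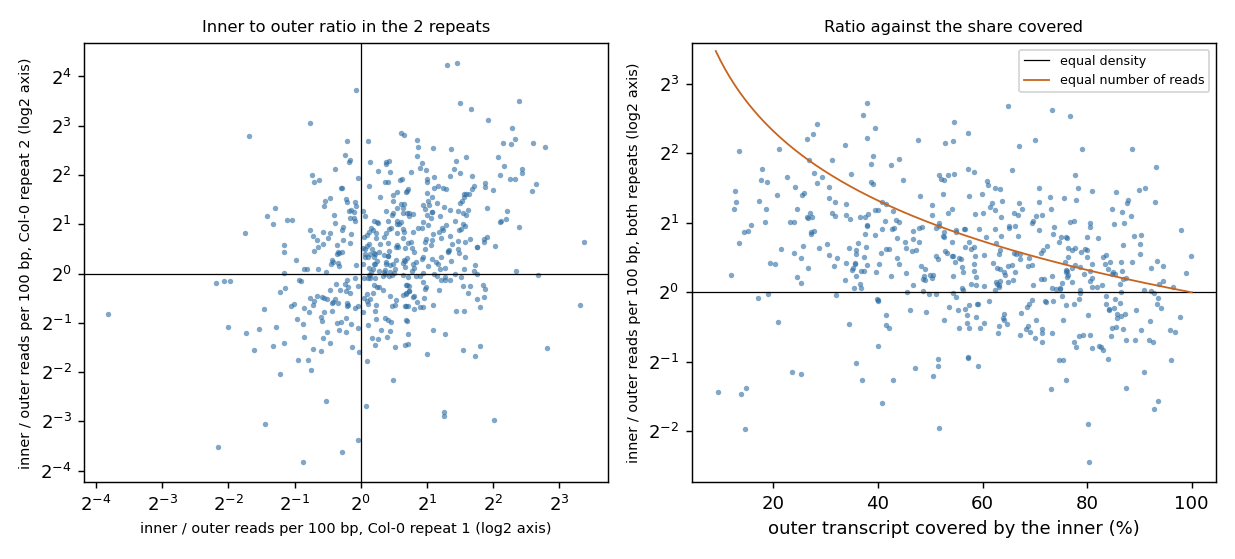
Left, the ratio of inner to outer reads per 100 bp in Col-0 repeat 1 against repeat 2, on log2 axes with lines at equal density, 1 point per pair. The inner was denser in both repeats in 244 of 494 pairs. Right, the ratio over both repeats against the percentage of the outer transcript covered, with the black line at equal density and the orange curve at equal numbers of reads, below which most pairs lie.

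The balance moved with the share of the outer transcript that was covered. This share is nearly the inner over the outer length, by which the density ratio divides the ratio of reads. The fall of the density ratio with the share is therefore partly arithmetic. In the tertile of pairs with the smallest share, 9.41% to 49.3%, the inner had more reads in 20 of 165 pairs and the median density ratio was 1.70. In the middle tertile it had more in 58 of 164, with a ratio of 1.41, and in the tertile with the largest share, 71.3% to 99.8%, in 75 of 165, with a ratio of 1.14. Median reads of the inner transcript were 67, 79 and 83 in these tertiles, and those of the outer 129, 97.5 and 92.

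Which strand had more reads was not stable for every pair. The inner had more in both repeats in 86 pairs and the outer in 237, while in 171 the repeats differed or tied. Between repeats, the log2 ratio of densities was related with rho = 0.323 (Spearman) and r = 0.33 (Pearson) across the 494 pairs, all from the same libraries. Its difference between repeats had an SD of 1.29, so that a density ratio of 1.38 in a single pair lay within the spread between repeats.

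Single pairs showed the range. At PVTrans1703 and PVTrans1702, the Col-0 repeats had 181 and 172 reads on the inner transcript, and *nrpe1* 0 and 1. The outer PVTrans1702 had 104 and 69 Col-0 reads and none from *nrpe1*, so the inner, printed above, was the stronger strand in both repeats. At the second example, PVTrans715 had 60 and 68 reads and PVTrans714 had 55 and 17, without a read in *nrpe1*. In density the inner strand was thus ahead 1.79-fold in repeat 1 and 6.57-fold in repeat 2.

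The 3 pairs with the highest density ratio in the same direction in both repeats lay near PVTrans2007, PVTrans2530 and PVTrans2848. PVTrans2007 had 135 and 86 reads against 68 and 20 on its partner PVTrans2006, a density ratio of 6.62. PVTrans2530 had 130 and 100 reads against 29 and 26 on PVTrans2529, a ratio of 6.44. PVTrans2848 had 187 and 106 reads against 42 and 23 on PVTrans2847, a ratio of 6.15. That the inner strand was denser in both repeats follows from how the 3 pairs were chosen. Of the stretches of 50 bases in PVTrans2007, PVTrans2530 and PVTrans2848, 28.5%, 2.05% and 22.7% occur elsewhere in the genome. Reads there can be shared with copies.

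At the low end, PVTrans3832 had 25 and 4 reads where its partner PVTrans3831, which extended only 11 and 41 bp past it, had 139 and 57. The density ratio was 0.18, and its sequence is among those printed above. PVTrans216 had 65 and 17 reads inside the 2231 bp PVTrans215, which had 342 and 274. Its ratio was 0.26, and PVTrans215 was no member, with 27 and 5 reads in *nrpe1*.

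The pairs with the most reads had long outer transcripts that were not members. PVTrans2554, of 6665 bp, gave 1000 and 1562 Col-0 reads, and also 150 and 256 from *nrpe1*. On its other strand lay 2 members at opposite sides, PVTrans2556 with 80 and 16 reads and PVTrans2555 with 77 and 12, and neither had a read in *nrpe1*. PVTrans4397, of 2121 bp, gave 819 and 866 Col-0 reads, with 0 and 4 from *nrpe1*, and contained PVTrans4398 with 28 and 56. The longest outer transcript, PVTrans2351 of 8695 bp, gave 779 and 506 Col-0 reads, with 168 and 27 from *nrpe1*. It contained PVTrans2352, with 46 and 27 Col-0 reads, and PVTrans2353, with 97 and 86 from Col-0 and 2 and 0 from *nrpe1*.

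Such pairs were not rare. In the 127 pairs with only an inner member, the outer was at least 1400 bp long in 116, had more than 3 reads in an *nrpe1* library in 41, and met both conditions in 31. In 1 pair the outer, PVTrans3406, met neither condition, but shared its longest overlap with PVTrans3408, with which it was divergent. In these 127 pairs the outer had a median length of 1732 bp and the inner covered a median of 40.03% of it, against 872.5 bp and 66.0% in the 356 pairs of 2 members. The density ratio was 1.40 in the former and 1.39 in the latter. The inner had more reads in 17 of 127 and 132 of 356.

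AGO4 RIP-seq, made from other libraries than those behind the membership, was compared next. Of the 849 members, 341 (40.2%, Wilson 95% interval 36.9 to 43.5) overlapped an AGO4-bound transcript of the same strand by at least 1 bp, against 35.7% of the whole list. The share was 37.9% for convergent, 45.1% for divergent and 26.2% for single-strand transcripts. It was 38.9% for inner and 41.8% for outer members. An overlap of at least 50% of the member left 248 (29.2%), against 25.4% of the list. With 1 AGO4 library per genotype there is no test between classes, and the intervals cover counting over transcripts only.

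Among nested members and over the list, the AGO4-bound share was higher with more Pol V reads. By tertiles of the list in Col-0 reads, the share among nested members was 23.7%, 30.5% and 60.6%, and over the list 18.5%, 28.7% and 59.8%. In convergent transcripts it was 31.8%, 22.1% and 56.5%, lower in the middle than in the lowest tertile. Members had a median of 81 Col-0 reads over both repeats, single-strand transcripts 62, and the list 74.5. In divergent transcripts it was 19.4%, 40.3% and 71.9%, and in single-strand ones 15.6%, 25.1% and 57.2%. The nested members were above the list and the single-strand transcripts in each tertile, and above the list by least in the highest. They were above the divergent transcripts in the lowest tertile only and below them in the middle and highest. These differences were not tested.

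**Figure D3:**
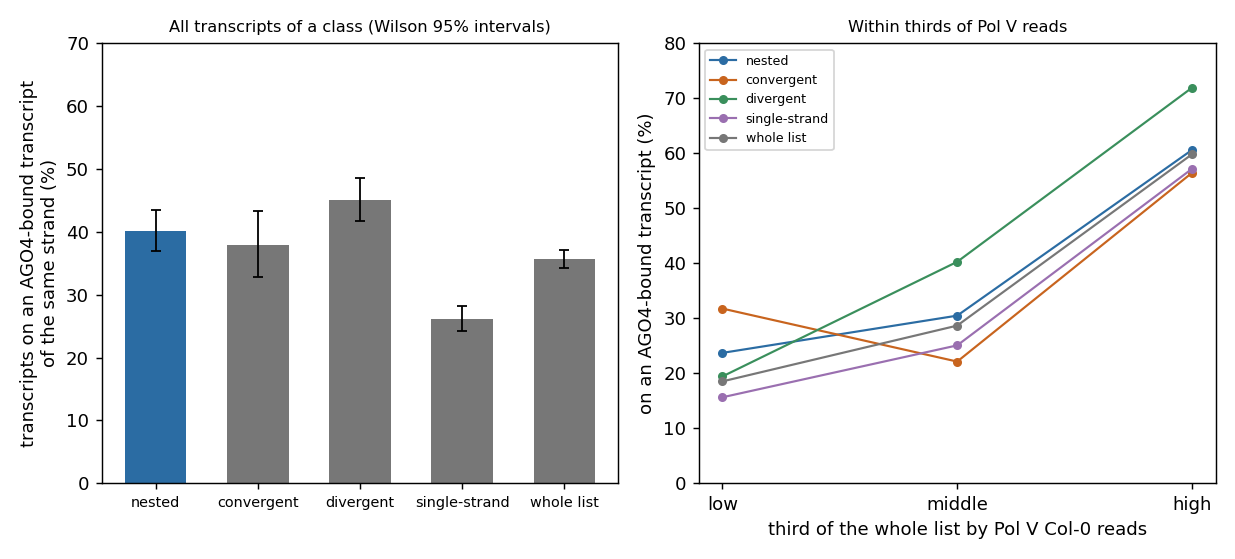
Left, percentage of Pol V transcripts that overlapped an AGO4-bound transcript of the same strand, by arrangement, with Wilson 95% intervals, 40.2% for the nested members (blue). Right, the same percentage within tertiles of the whole list by Pol V Col-0 reads, where the share among nested members was 23.7%, 30.5% and 60.6%.

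The AGO4 signal on members was low and nearly absent from *ago4*. The study had listed AGO4-bound transcripts by their Col-0 reads and their enrichment over *ago4*, in these same libraries. The excess of Col-0 was thus largely fixed by the calling and is only described. The 341 members lay on 343 AGO4-bound transcripts, 8.71% of the 3940 in that list. Their Col-0 reads ran from 5 to 91, with a median of 16, the same as over the AGO4 list, and their *ago4* reads from 0 to 13. In *ago4*, 316 of the 343 (92.1%) had no read, against 72.7% of the AGO4 list. That list, unlike the members, has no limit on length or *nrpe1* reads, so nothing about nesting is read from this gap. Against a floor of 3 reads in *ago4*, the median ratio of Col-0 to *ago4* reads on these transcripts was 5.33. With the libraries taken as equally deep, the ratio at this floor is a lower bound only for the 316 without an *ago4* read. In deduplicated reads, which count copies of a fragment once, Col-0 had 5 to 48 reads with a median of 8, the median of the AGO4 list too, and *ago4* had 0 to 6. The median fold against the same floor was then 2.67.

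On the strand of the member, the listed ends of the AGO4-bound transcripts often lay near those of the Pol V transcript, with a wide range. Where at least 50% of a member was covered, the 5′ end of the AGO4-bound transcript lay a median of 18.5 bp downstream of that of the member (11 to 39, n = 248). Its 3′ end lay at a median of -18.5 bp from that of the member (-34 to -3), that is, upstream of it. The 5′ ends lay within 100 bp of each other for 147 (59.3%) and the 3′ ends for 154 (62.1%). Offsets ran from -792 to 551 bp at the 5′ end and from -671 to 877 bp at the 3′ end. Requiring 50% cover favours near ends.

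Both strands of a nested pair overlapped listed AGO4-bound transcripts in part of the cases. A strand without one is not shown to lack AGO4, since listing needed enough reads in 1 Col-0 library. From AGO4 signal, the study concluded that most Pol V transcripts associate with AGO4. In 104 of 494 pairs (21.1%) each strand overlapped an AGO4-bound transcript of its own orientation, in 88 only the inner strand, in 122 only the outer strand, and in 180 neither. Median Col-0 Pol V reads of a pair were 272.5, 189, 215.5 and 151.5 in these groups. The median Pol V density ratio was 1.61 where only the inner strand overlapped an AGO4-bound transcript and 1.19 where only the outer strand did. It was 1.30 with both and 1.43 with neither.

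In the 104 pairs with AGO4 on both strands, the AGO4-bound transcripts often had another arrangement than the Pol V transcripts. The AGO4-bound transcript on the inner strand lay inside that of the outer strand in 39, the reverse held in 17, they converged in 15, diverged in 32 and did not overlap in 1. More AGO4 reads were on the inner strand in 42, on the outer in 58, and equal in 4. Pol V had more reads on the inner strand in 27 of these pairs, of which 17 also had more AGO4 reads there, and more on the outer in 77, of which 48 also had more AGO4 reads there. The log2 ratio of inner to outer reads had a Spearman rho of 0.518 between the assays, described across 104 pairs that share libraries.

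By Col-0 reads of the whole AGO4-bound transcript overlapped, PVTrans4500, PVTrans3930 and PVTrans3127 ranked highest among members. PVTrans4500, an outer transcript, overlapped AGO4_Trans3939, which had 91 AGO4 reads from Col-0 and 13 from *ago4*, the highest *ago4* count on any member. The overlap took in only 36.7% of PVTrans4500, and how many of these reads lay within it is not known. PVTrans4501, the inner partner of PVTrans4500, overlapped no listed AGO4-bound transcript of its strand. It had 101 and 51 Pol V reads against 125 and 19 on PVTrans4500. PVTrans3930 lay on AGO4_Trans3431 with 88 AGO4 reads from Col-0 and 4 from *ago4*, and its partner PVTrans3929 overlapped 2 AGO4-bound transcripts with 70 Col-0 reads in all, of which AGO4_Trans3432, the longest overlap, had 32 and 5 from *ago4*. PVTrans3127 lay on AGO4_Trans2576 with 87 and 2, and PVTrans3126 on AGO4_Trans2575 with 26 and 2. PVTrans3127 also had the most Pol V reads of all members, 406 and 486 in Col-0 against 119 and 155 on PVTrans3126. The AGO4 and Pol V reads of this pair favoured the same strand.

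Of the pairs printed as sequence, PVTrans1703 had 67 AGO4 reads on its strand and PVTrans1702 had 22, with none in *ago4*. PVTrans715 and PVTrans714 had 12 and 14, and PVTrans4398 and PVTrans4397 had 7 and 160. PVTrans3832 and PVTrans1677 overlapped no listed AGO4-bound transcript of their strand, whereas their outer partners had 22 and 27 AGO4 reads. In the 3 pairs of highest density ratio the reverse held, with 24, 38 and 26 AGO4 reads on the strand of PVTrans2007, PVTrans2530 and PVTrans2848 and no listed AGO4-bound transcript on the outer strand.

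Most nested transcripts lay between genes. By the TAIR10.1 annotation, 523 members (61.6%) overlapped no gene, against 55.0% of the list, where reads in annotated genes had been set aside by the study. A protein-coding gene was overlapped by 119 (14.0%), against 23.1% of the list and 27.1% of single-strand transcripts. Of these, 89 touched an untranslated exon, 29 a coding exon and 1 an intron alone. A pseudogene was overlapped by 149 (17.6%, list 16.7%) and a long noncoding RNA gene by 60 (7.07%, list 6.57%). Transposons outside this annotation were not analysed here.

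By median, members lay slightly further from a protein-coding gene than the list did, and about as often within 1 kb upstream of one. The nearest protein-coding gene was a median of 445 bp away (394 to 516), against 391 bp over the list. Among the members, 457 (53.8%) lay upstream of that gene and 273 (32.2%) downstream, against 48.2% and 28.7% of the list, and the rest overlapped it. These shares were not tested. Within 1 kb upstream of some protein-coding gene were 416 (49.0%), against 47.4% of the list. For 137 pairs that lay within 1 kb upstream of the nearest gene, the inner transcript was on the strand of the gene in 66 and the outer in 71, so neither role followed the gene's direction.

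Examples show these settings. PVTrans1703 lay 438 bp upstream of AT2G21130, while the outer PVTrans1702 came within 54 bp of it. PVTrans715 lay 324 bp downstream of AT1G51810. PVTrans3832 lay 54 bp upstream of AT5G27280. PVTrans2530 was 160 bp upstream of ATMIN7 (AT3G43300), a gene known for its part in vesicle traffic, and the outer PVTrans2529 came within 8 bp of it. PVTrans3127 and PVTrans3126 reached into AT4G08310, and PVTrans1677 into AT2G19870. PVTrans4397 overlapped AT5G52070 and the gene of the microRNA MIR4245 (AT5G07875).

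Nested transcripts were spread along the chromosomes with some local groups. Of 240 windows of 500 kb, 176 held at least 1 member. The most were in chromosome 1 from 17 to 17.5 Mb, with 20 of 59 listed transcripts. Chromosome 2 from 1.5 to 2 Mb had 18 of 57, and from 9 to 9.5 Mb, where PVTrans1703 lies, 16 of 32. In the 32 windows with more pseudogenes than protein-coding genes lay 13.1% of the members, against 14.3% of the list.

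The stretch transcribed on both strands had more G+C than the overhangs of the outer transcript. The inner span had a median of 35.4% G+C and the overhangs 31.9%, and the inner span was higher in 349 of 494 pairs (70.6%) by a median of 2.98 percentage points (2.32 to 3.76). Single-strand transcripts, divided into the central 60% of their length and the ends, had a difference in the same direction of 0.76 percentage points (0.52 to 1.07, n = 1969), with the centre higher in 55.9%. As whole transcripts, the members had a median of 34.9% G+C, against 34.6% over the list.

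Cytosines in all 3 contexts of plant DNA methylation were denser in the inner span. Every cytosine of either strand counts towards G+C, so these densities are partly set by the G+C content given above. Whether they differ beyond it was not tested. CHH sites, counted on both strands per 100 bases of each, had a median of 13.0 in the inner span and 12.1 in the overhangs, with a median difference of 0.87 (0.64 to 1.15) and the inner span higher in 334 pairs (67.6%). CG sites had 2.59 and 1.98, and were denser in the inner span in 310 pairs. CHG sites had 2.07 and 1.70, and were denser there in 296. Within the inner span, more CHH sites lay on the strand of the inner transcript in 233 pairs and on that of the outer in 252. PVTrans1703 went against the CG pattern, with 0.68 CG per 100 bases in the inner span and 2.01 in the overhangs, but had 14.2 and 8.72 CHH. These are counts of sites in the genome sequence. DNA methylation itself was not analysed here.

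**Figure D4:**
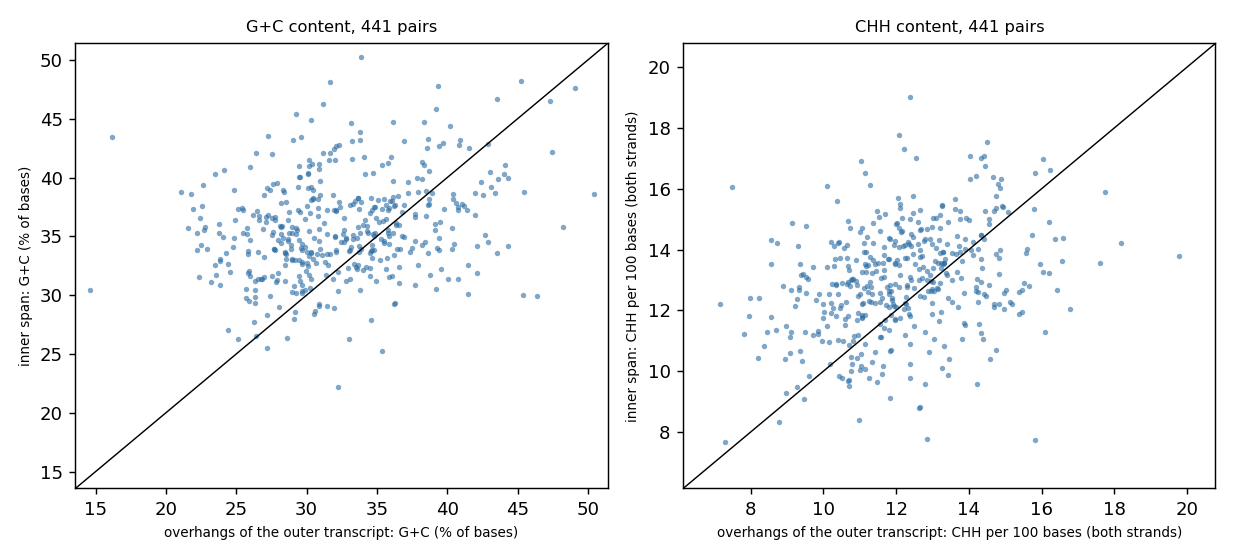
G+C percentage (left) and CHH cytosines per 100 bases (right) in the inner span against the overhangs, 1 point per nested pair, for the 441 pairs with at least 100 bp of overhang. The line marks equal values, and 313 pairs lie above it for G+C and 300 for CHH.

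Repeated sequence took similar shares among nested transcripts and in the list. Of the members, 583 (68.7%) had no stretch of 50 bases that occurs elsewhere in the genome, against 67.9% of the list. In 19 (2.24%) more than 50% of such stretches occurred elsewhere, against 2.22%. Of the pairs, 35 (7.09%) shared a stretch of 50 bases with another pair, so their reads may not be independent. PVTrans2298 and PVTrans2299, the pair closest to full overlap, were among the most repeated, with 69.9% and 69.8% of their stretches found elsewhere, and reads there can be shared with copies.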

How the data were processed

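Pol V RIP-seq (Col-0 and *nrpe1*, 2 repeats each) and AGO4 RIP-seq (Col-0 and *ago4*, 1 library each) were analysed. The authors mapped reads to TAIR10, set aside reads in annotated genes, called transcripts and deposited the raw read count of each one in each library. The authors also deposited counts of deduplicated AGO4 reads and, for Pol V, the p-value and q-value of their own test. The p-value and q-value were not used, and the deduplicated counts served only as an alternative. Of the columns of per-sample values, 0 were unused. The members, lists and settings were chosen with earlier results of these data known.

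Reads were used as deposited. Listed reads numbered 1980 to 251106 per Pol V library and 6245 to 118313 per AGO4 library. Intervals are 95%, by order statistics for medians and Wilson's method for shares, and describe the spread over transcripts, not between libraries. The study calls the repeats biological, whereas the labels only number them, so p-values measure the spread between these libraries, which may be technical. Folds use a floor of 3 reads per library. Col-0 and *nrpe1* were compared in edgeR 4.0.16 (R 4.3.3) by the quasi-likelihood test, with equal library sizes and a threshold of 0.05. DESeq2 1.42.0 was an alternative. The test, the nesting rule and the sequence counts were checked on simulated data. For the test, a small part of the transcripts was raised over Col-0 read levels in all libraries. That differs from these data, so the check does not cover the calls given here. Other steps used Python 3.11.15, numpy 2.4.6, scipy 1.17.1, pandas 2.3.3 and matplotlib 3.10.9.

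Genome and annotation were those of RefSeq TAIR10.1. The last listed ends on chromosomes 1, 4 and 5 (30427655, 18585053 and 26975470) lie within the assembly's lengths (30427671, 18585056 and 26975502). That annotation is later than the one the authors used. Lengths equal end minus start. Named pairs were those in the study's primer list or first genome view, the 3 with the most reads, the 3 highest and 3 lowest density ratios on 1 side in both repeats, the extremes of inner length and covered share, the 3 members with the most AGO4 reads, the 2 with the longest outer that was no member, and transcripts next to a limit. Alternatives changed the normalization, tool, read filter, floor, block, overlap rule, subset of pairs and library left out.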

Additional observations from a re-analysis of the deposited data

How the results depend on the processing

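The numbers of transcripts called between Col-0 and *nrpe1* held with a DESeq2 Wald test, with a filter of at least 8 reads in each Col-0 repeat, and without either *nrpe1* library. With edgeR TMM factors or with DESeq2 size factors, 0 transcripts of the list and 0 members were called. Over the libraries left out in turn, calls ranged from 0 to 4492 in the list and from 0 to 849 among members, with 0 without either Col-0 library, where the lone sample is assumed to vary like the other group. With the replicate block, 4091 listed transcripts and 814 members were called. Deviations of same-numbered libraries correlated at 0.11. With 2 pairs and a median of 0 *nrpe1* reads, this value cannot show whether libraries were paired. The study filtered on Col-0 over *nrpe1* within each repeat, whereas the fit without the block takes the numbers as names only. The median ratio of members was 39.5 with a floor of 1 read, which is no bound, since 0 reads allow up to 3, and at least 11.3 to 15.7 without a repeat at the floor of 3.

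The density ratio was 1.33 to 1.40 without a repeat, and the share of pairs with more reads on the inner was 34.2% to 34.4%. In pairs of 2 members this share was 37.1% and the covered share 66.0%. The share of members on an AGO4-bound transcript was 29.2% with an overlap of 50% of the member and 27.6% with 50% of both. In all, 26 values under alternatives kept their direction and stayed within the spread between repeats, the 95% interval or 1.5 times the count. A further 9 moved outside these limits, and 8 counts of calls were weaker. The spread between repeats came from the values without a repeat themselves, so it is a weak yardstick for these. The causes were not tested. On deduplicated reads, an alternative chosen after seeing the data, the median AGO4 fold of transcripts on members was 2.67. Library depth beyond the listed transcripts is not known here.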
